A study of Mus musculus with 8 samples.

Results

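Rn45s is the mouse gene for the long precursor of ribosomal RNA, and this account follows the reads at its one assembled copy on chromosome 17 through 8 Sono-seq libraries of the hippocampus. The members were the rows of the deposited count table that overlap the window from 39975000 to 39990000 of chromosome 17 (mm9). There were 2 of them among 11304 regions, together with the peaks that each library lists in the same window. The placing of the gene in this window comes with the choice of the window; no mm9 annotation was used here to check it. The window was picked with results of these libraries known, its longer row being one of the regions called when counts are scaled by region totals alone. Differences between the groups at Rn45s are therefore given as descriptions, with no p-value. Calls from fits of the whole table are printed as background, and nothing is read from them for the 2 rows.

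All mice were male C57BL/6J animals of 2 months of age, handled daily for 3 days. The conditioned group (4 mice) was placed in a chamber, received 1 foot shock of 2 s at 1.5 mA, and had the hippocampus removed 30 min after this training. The control group (4 mice) was handled without training, with dissection at a matched time of day. Sono-seq reads the DNA of fixed, sheared chromatin directly, with no antibody step, and reads pile up where chromatin shears readily and also where a sequence is present in many copies. The tissue is a mixture of neurons, glia and other cells, and a change in every cell and a change in the mixture give the same reading.

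Ribosomal RNA genes lie in long tandem arrays on several mouse chromosomes. RNA polymerase I transcribes them in the nucleolus into a precursor that is cut into the RNAs of the small and the large ribosomal subunit. Part of the repeats is held silent in closed chromatin while the others are open and loaded with polymerase, and the supply of ribosomes in neurons depends on the transcribed ones. The arrays are almost wholly missing from genome assemblies. Reads from any repeat can therefore align to the assembled copy, and a count there sums over copies, active and silent ones alike. The treatment of multiply mapped reads is not given in the sources used here.

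The first row, called the long row below, ran from 39979506 to 39984346 of chromosome 17 (4840 bp) and held 1953441 reads over the 8 libraries. The second, the short row, ran from 39984873 to 39985873 (1000 bp) and held 343523 reads. A gap of 527 bp separates them. Both are carried by all 8 libraries in the deposited region list. By mean share of a library's counts the long row ranked 28 and the short row 38 of the 11304 regions, and by deposited mean z score they ranked 19 (z of 548) and 17 (z of 607). In the share ranking the long row (0.367%) stood between a region of chromosome 2 at 181746465 to 181748065 (0.368%) and one of chromosome 9 at 3036485 to 3038336 (0.360%). The neighbours of the short row (0.0641%) were regions of chromosome 9 at 24346285 to 24346686 (0.0675%) and of chromosome 17 at 13743273 to 13746157 (0.0639%).

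The 2 rows stand alone on their part of the chromosome. The nearest listed region before them, at 39496823 to 39499373, lies 480 kb away and had 164 to 712 reads per library, and the nearest after them, at 41996723 to 42001006, lies 2011 kb away and had 317 to 928 reads. Per kilobase, the long row had 114 to 546 times the reads of the region before it in the same library. It had 63.0 to 144 times the median read density of all 11304 regions (median over libraries 93.4 times), and the short row 55.2 to 182 times (median 75.3 times). By library the density of the long row over that median was 144, 63.0, 118 and 90.4 times in the controls and 127, 76.2, 96.5 and 82.4 times in the conditioned mice, each by replicate. The order of the libraries on this scale did not follow the groups: the highest and the lowest were both controls.

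Counting error was small at this locus. Libraries held 36786183 to 83233550 reads over all regions, of which the Rn45s window took 83052 in control replicate 3 and 607678 in conditioned replicate 4. The 95% Clopper-Pearson interval of a row's share had a half-width of at most 0.00183 percentage points. It covers counting error only, since PCR copies cannot be told from independent molecules. The libraries differ in make-up far more than that. In control replicates 1 and 3 the regions outside the 50 with the highest mean share held 3.36% and 5.36% of the counts, against 9.24% to 17.6% in the other 6 libraries. Results for the window are therefore given on several denominators, with values against control replicates 2 and 4 alone, a setting chosen after seeing the data.

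Set against all counts, Rn45s was higher in most conditioned libraries. In control replicates 1 to 4 its 2 rows together took 0.201%, 0.376%, 0.226% and 0.381% of the counts. In conditioned replicates 1 to 4 they took 0.548%, 0.374%, 0.612% and 0.730%. Conditioned replicate 2 lay within the control range, just under control replicates 2 and 4, and the other 3 conditioned libraries lay above every control. Of all regions, 5.65% had every conditioned library above every control on this scale, which Rn45s did not. The conditioned mean was 0.566% ± 0.149 and the control mean 0.296% ± 0.0962 (SD, n = 4 each), a difference in mean log2 share of 0.95 (SE 0.32), or 1.94-fold. Against control replicates 2 and 4 alone the difference was 0.54. The long row alone had 0.483% ± 0.126 against 0.252% ± 0.0871 and the short row 0.0836% ± 0.0231 against 0.0446% ± 0.0117 (SD, n = 4 each).

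Values against other high-count regions were similar. The regions used hold large, nearly constant shares of each library (SD over mean 4.88% on chromosome 9 and 4.65% on chromosome 2). Dividing by them therefore nearly repeats the share of all counts and gives no separate support. The 22 regions of chromosome 9 between 3000000 and 3100000, at the end of the assembled sequence next to the centromere, held 29.4% to 34.5% of each library. For every 100 reads there, Rn45s had 0.582, 1.23, 0.710 and 1.19 reads in the 4 controls in order of replicate. The 4 conditioned libraries had 1.72, 1.22, 2.02 and 2.48. Conditioned replicate 2 again fell inside the control range, whereas 5.63% of all regions had groups that did not overlap, with conditioned libraries above. The conditioned mean was 1.86 ± 0.532 and the control mean 0.929 ± 0.331 (SD, n = 4 each), a log2 difference of 1.03 (SE 0.35), and 0.57 against control replicates 2 and 4 alone.

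The 3 regions of chromosome 2 between 98500000 and 98510000, which include the highest of all, held 40.1% to 46.9% of each library. Per 100 reads there, Rn45s had 0.428, 0.879, 0.512 and 0.859 reads in the controls, by replicate, and 1.24, 0.884, 1.45 and 1.82 in the conditioned libraries, a log2 difference of 1.03 (SE 0.34), and 0.59 against control replicates 2 and 4 alone. Here the groups did not overlap, but by a margin of 0.879 to 0.884 only, between control replicate 2 and conditioned replicate 2. Of all regions, 5.86% had every conditioned library above every control on this scale, and since the window was picked on this contrast nothing is read from its being among such cases.

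Set against reads outside the 50 highest regions, the difference between the groups was near 0. For every 100 reads outside the 50 highest regions, Rn45s had 5.97, 2.92, 4.21 and 3.87 reads in control replicates 1 to 4. Conditioned replicates 1 to 4 had 5.93, 3.07, 4.56 and 4.15. The 2 groups covered nearly the same range, and the highest and the lowest library were both controls. On this scale 2.39% of all regions had every conditioned library above every control. The conditioned mean was 4.43 ± 1.18 and the control mean 4.24 ± 1.28 (SD, n = 4 each), a log2 difference of 0.07 (SE 0.29). With only the 20 highest regions left out of the denominator it was 0.52, but that denominator still holds the Rn45s rows themselves (ranks 28 and 38). With the 100 or the 200 highest left out it was 0.05. The sign of so small a value was not stable: it was -0.09 without control replicate 2 and -0.08 without conditioned replicate 1, but 0.36 against control replicates 2 and 4 alone. With those 2 controls the values on the share and on this scale (0.54 and 0.36) thus lay closer together than with all 4 (0.95 and 0.07).

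**Figure D1:**
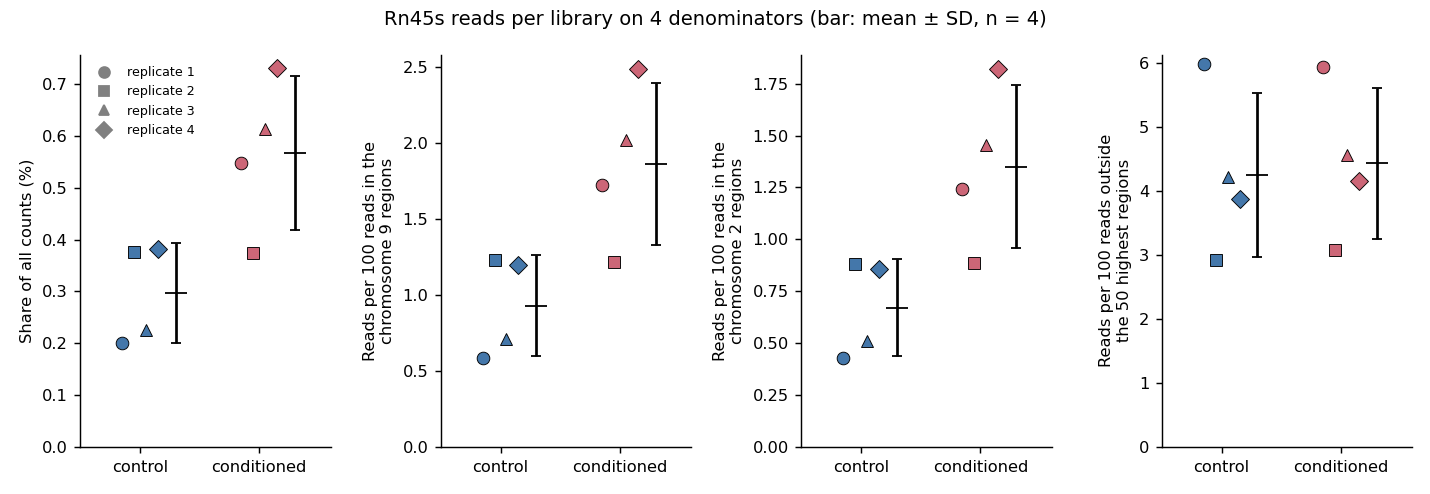
Reads at Rn45s in each library on 4 denominators: percent of all counts, and reads per 100 reads in the chromosome 9 regions, in the chromosome 2 regions and outside the 50 highest regions; symbols are libraries by replicate number, bars the mean ± SD (n = 4). On the first 3 scales conditioned replicates 1, 3 and 4 lie above every control, while on the last scale both groups run from about 3 to 6 reads.

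The same held in a model fitted to the whole table. TMM factors, which scale each library by the typical region, were lowest in control replicate 1 (0.332) and highest in conditioned replicate 4 (2.01). On that scale (CPM, read counts relative to the scaled library size) the long row had 4794, 2191, 3845 and 3223 CPM in the controls by replicate. The conditioned libraries had 4377, 2680, 3401 and 3083 CPM. The conditioned values lay inside the control range. The fitted log2 fold change of edgeR's quasi-likelihood model, conditioned over control, was -0.05 (SE 0.50). The short row had 1259, 396.5, 589.3 and 473.1 CPM in the controls and 759.4, 450.8, 584.1 and 544.5 CPM in the conditioned libraries, by replicate, a log2 fold change of -0.22 (SE 0.49). Control replicate 1 was far above the rest, and without it the value for the short row was 0.25. Without control replicates 1 and 3 the long row had 0.31 (SE 0.45) and the short row 0.41 (SE 0.43).

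For background, at an adjusted p below 0.05 (Benjamini-Hochberg), edgeR's test with TMM factors called 0 of 11304 regions (0%). At unadjusted p below 0.05 edgeR gave 881 regions (7.79%), of which 199 were higher and 682 lower in conditioned libraries. At the adjusted threshold DESeq2's Wald test called 40 (0.354%), neither Rn45s row among them, and limma voom called 0. With region totals as the only scaling, 6 regions were called (0.0531%). The long row (log2 fold change 0.94, SE 0.17) was among them, which was known when the window was picked, so nothing is read from it. The short row had 0.91 (SE 0.34) and was not called. That scaling also moved the median of all regions, from -0.05 to 0.75.

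In this contrast the Rn45s rows lay near the median of all regions. On the share of all counts the difference in mean log2 value was 0.97 for the long and 0.90 for the short row, while the median of the 11304 regions was 1.03 (5th to 95th percentile -0.12 to 1.81). A larger difference was found in 6279 regions (55.5%) than in the long row, and in 6857 (60.7%) than in the short row. Against reads outside the 50 highest regions the same differences were 0.08 and 0.02, with a median of 0.15 over all regions. Against control replicates 2 and 4 alone the rows had 0.53 and 0.61 on the share scale, above the median of 0.22, and 29.7% and 25.1% of regions had a larger difference than the long and the short row. Among the 50 highest regions, in contrast, the 2 rows ranked 3 and 5 by this difference, since 34 of these 50 had a lower share of counts in conditioned libraries and their median difference was -0.06 on the share scale. The others of the first 5, named after their values were seen, were on chromosome 16 at 57391364 to 57392053 (1.21 on the share scale), chromosome 5 at 147072377 to 147073157 (1.09) and chromosome 16 at 11143903 to 11144637 (0.94).

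**Figure D2:**
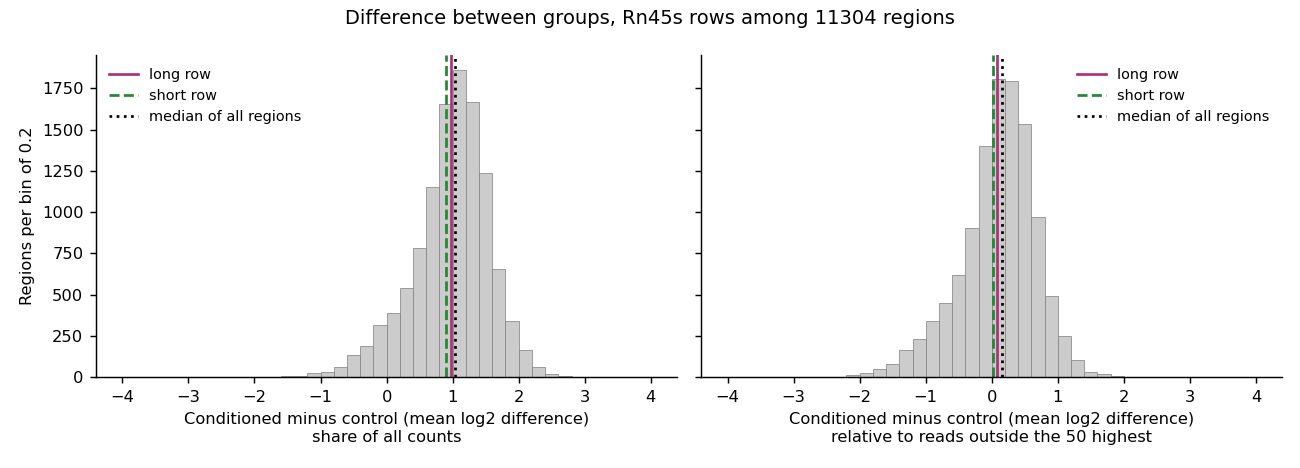
Histograms of the difference between groups (mean log2 value, conditioned minus control; bins of 0.2) over 11304 regions, on the share of all counts and relative to reads outside the 50 highest regions, with vertical lines at the 2 Rn45s rows and at the median of all regions. The rows (0.97 and 0.90, then 0.08 and 0.02) lie just left of the median (1.03, then 0.15) on both scales.

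How much Rn45s varied over the 8 libraries also depended on what it was set against. As a share of all counts, the coefficient of variation (SD over mean) was 43.3% for the long row and 41.9% for the short row. The median was 8.57% among the 50 highest regions but 62.3% over all regions, so the rows varied less than most regions. The chromosome 9 and chromosome 2 regions had only 4.88% and 4.65%. Relative to reads outside the 50 highest regions the order within those 50 turned round. The long row had 24.7% and the short row 40.6%, while the chromosome 9 regions had 72.0% and the chromosome 2 regions 71.1%. On this scale the long row ranked 2 and the short row 4 by lowest variation among the 50 highest regions (median 72.4%). Both rows varied less than the median of all regions (47.8%). These are descriptions over 8 libraries that share their denominators.

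The regions most like Rn45s over the 8 libraries were weak ones, ranking between 6876 and 11244 by mean share. Nearly all regions of the table are weak beside the Rn45s rows. On the log2 share of all counts, the highest Pearson correlations with the summed window were 0.990 for a region of chromosome 18 at 25912563 to 25914163, 0.989 for chromosome 2 at 4524471 to 4524935, 0.988 for chromosome 3 at 37379975 to 37380512, 0.987 for chromosome 16 at 10192722 to 10193503 and 0.986 for chromosome 11 at 55017679 to 55018090. High values were common on this scale, with a median of 0.742 over 11302 regions and 924 regions (8.18%) above 0.9. The 2 Rn45s rows correlated with each other at 0.927, a value for row against row that is not comparable with those for the summed window. On the TMM-scaled log2 CPM the median was -0.06, the 2 rows had 0.896, and the highest were regions of chromosome 7 at 25866282 to 25866723 (0.954), chromosome 3 at 59493917 to 59495389 (0.941), chromosome 2 at 83926459 to 83927459 (0.940), chromosome 18 at 14261572 to 14262013 (0.940) and chromosome 1 at 47477529 to 47478879 (0.935). With 8 libraries and 11302 candidates such maxima are a ranking only, and no region was in both lists.

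The peak lists show how the signal is spread along the window. Parts of the repeat unit were not placed on it. Every library lists 5 peaks with z of at least 30 in the window, numbered here by position. Peak 1 starts between 39979706 and 39979773, peak 2 between 39980906 and 39980973, peak 3 between 39982106 and 39982199, peak 4 between 39983306 and 39983549 and peak 5 between 39985073 and 39985196. Peaks 1 to 3 have a listed length of 950 bp in every library, which is also the longest length of any peak in all 8 lists, so their edges need not be edges of the signal. Peak 4 was 400 to 700 bp and peak 5 was 450 to 600 bp long. The listed start of a peak differed between libraries by at most 67 bp for peaks 1 and 2 and by 243 bp for peak 4.

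The 2 rows follow from these peaks. The long row starts 200 bp before the first start of peak 1 and ends 200 bp after the last end of peak 4, and the short row reaches equally far to either side of peak 5. The deposited mean z of the long row, 548.466, equals the mean over its 32 peaks, and that of the short row, 607.321, the mean over its 8 peaks. Both rows therefore carry the peaks of all 8 libraries with equal weight.

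The order of the peaks was nearly the same in every library. Peaks 2 and 3 were the highest, at 88.8% to 100% and 87.8% to 100% of the highest z in the library's window. Peak 5 had 63.1% to 89.4%, peak 4 had 35.4% to 43.9% and peak 1, at the start of the signal, 23.1% to 33.7%. Peak 1 was the lowest and peak 4 the next in all 8 libraries. Peak 2 was the highest in control replicates 1 and 3 and in conditioned replicates 2, 3 and 4, and peak 3 in the other 3 libraries. Peak 5 ranked 3 in 7 libraries, and in control replicate 1 it ranked 2, above peak 3.

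Peak z at Rn45s was higher in 3 of the 4 conditioned libraries. For peak 2, control replicates 1 to 4 had z of 580.0, 753, 476 and 722, and conditioned replicates 1 to 4 had 1054, 603, 1159 and 1273. For peak 5 the values were 518, 575, 327 and 514 in control and 766, 441, 792 and 924 in conditioned libraries. In both peaks conditioned replicate 2 lay within the control range, and the other 3 conditioned libraries lay above it. The highest z of the window averaged 1024 ± 294 after conditioning and 666 ± 165 in controls (SD, n = 4 each), a difference of 358, and of 220.2 against control replicates 2 and 4 alone. The mean log2 differences of peaks 1 to 5 were 0.45, 0.66, 0.60, 0.51 and 0.58. The scaling of z is not stated, and total counts were also larger in conditioned replicates 1, 3 and 4 (75230707 to 83233550) than in the other 5 libraries (36786183 to 66135693); the part of depth in these z values was not tested. In rank, the highest Rn45s peak stood between 14 and 24 in each list of 379249 to 983420 peaks, at 4.44% to 9.68% of the highest z of the list.

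Beyond the 5 strong peaks the window was almost empty. Weak peaks were listed in 3 libraries: 3 in control replicate 1 (z of 9.82, 22.7 and 6.86), 1 in conditioned replicate 2 (z of 8.38) and 3 in conditioned replicate 3 (z of 7.89, 6.64 and 14.0). The other 5 libraries had none. Peaks covered 3950 to 4500 bp of the 15000 bp window, with means of 4275 ± 166 bp after conditioning and 4175 ± 185 bp in controls (SD, n = 4 each). Without the weak peaks the difference of 100 bp between the groups became 12.5 bp.

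**Figure D3:**
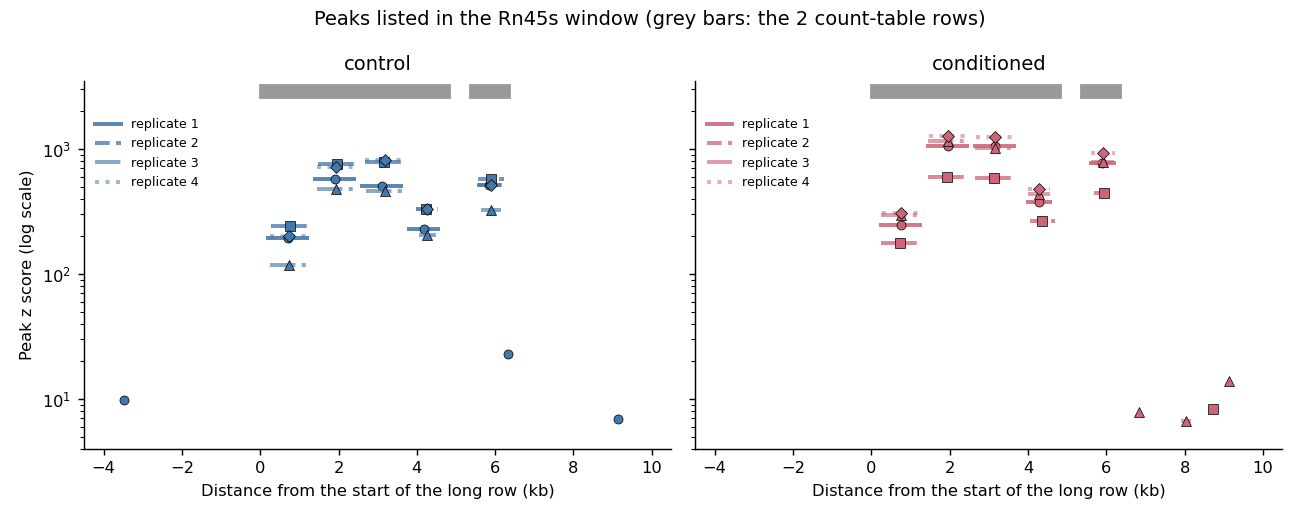
Peaks of each library in the Rn45s window, by distance from the start of the long row in kb and by z score on a log axis; horizontal strokes span the listed peak, symbols mark its centre, and grey bars the 2 rows of the count table. All 8 libraries show the same 5 peaks, lowest at peak 1 (z of 119 to 306), and only scattered weak peaks beyond.

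Reads divided between the 2 rows in nearly the same proportion in 7 of the 8 libraries. The short row took 14.8%, 14.4%, 14.7% and 15.0% of the window's counts in conditioned replicates 1 to 4. Control replicates 2 to 4 had 15.3%, 13.3% and 12.8%. Control replicate 1 had 20.8% (95% Clopper-Pearson interval 20.6% to 21.0%), above the range of the other 7 libraries. The conditioned mean was 14.7% ± 0.255 and the control mean 15.6% ± 3.66 (SD, n = 4 each), a difference of -0.84 percentage points that became 0.91 without control replicate 1 and 0.65 without control replicates 1 and 3. Per kilobase, the short row had 1.27 times the reads of the long row in control replicate 1 and 0.711 to 0.876 times in the other 7 libraries.

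Peak z gave the same reading for that library. Its peak 5 stood at 89.4% of the highest z of its window, against 63.1% to 73.2% in the other 7, and its peak 1 at 33.7% was also the highest of the 8. Over the whole table, the SD of the log2 ratio between neighbouring rows no more than 1000 bp apart had a median of 0.88 in 241 such pairs. The Rn45s pair had 0.25, and 0.11 without control replicate 1; 20 pairs had a smaller value than 0.25. Of the 22 pairs with at least as many reads in their weaker row, the Rn45s pair itself included, 20 were steadier than the Rn45s pair.

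**Figure D4:**
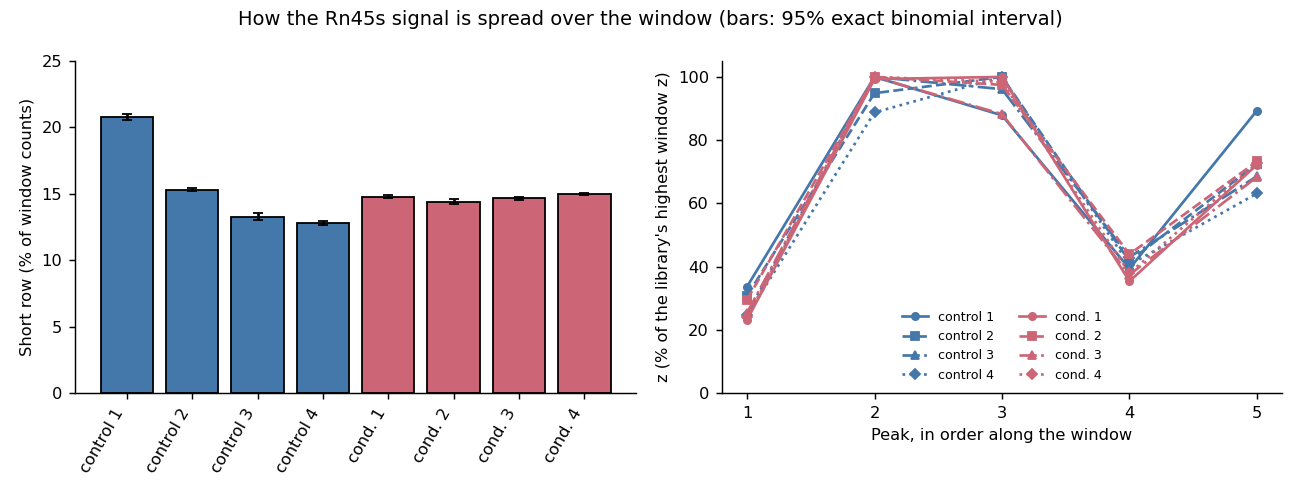
Left, the short row's percent of the Rn45s window's counts in each library, with exact 95% binomial intervals; right, z of the 5 strong peaks as percent of the library's highest z in the window, by peak number. Control replicate 1 stands apart in both, at 20.8% and at 89.4% for peak 5, while the other 7 libraries have 12.8% to 15.3% and 63.1% to 73.2%.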

How the data were processed

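Sono-seq libraries of 8 mice were compared (4 conditioned, 4 control). Bowtie2 (version not named) and mm9 are given per the submitters' processing notes; counting tool, peak caller and filters were not given in the sources used here. The authors deposited raw read counts for 11304 regions (lowest count 3), a region list (average z score; carriers, the other deposited value, from 4 to 8) and 1 peak list per sample with a z score per peak.

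Shares, ratios and CPM were computed in Python 3.11.15 (pandas 2.3.3, numpy 2.4.6, scipy 1.17.1). Peaks were given an added step of 50 bp for covered length. Counts were fitted by quasi-likelihood in edgeR 4.0.16 (R 4.3.3), with group as the only term, TMM and Benjamini-Hochberg adjustment. The filter filterByExpr removed 0 regions. The fit was also run on counts simulated from its own means and dispersions with planted differences. The estimated fold changes were checked there, and the share of planted differences called is not reported here. The SE of a fold change is its size over the square root of F. Alternatives were DESeq2 1.42.0, limma 3.58.1 (voom), other scalings, denominators and z minima, a replicate block, and leaving out each library; leaving out control replicates 1 and 3 together was added after seeing the data. The 50 highest regions are those with the highest mean share. The regions named as alike are the 5 with the highest correlation on each of the share and TMM scales. The window, members and alternatives were chosen with earlier results of these data known. The labels describe separate mice, so spread between libraries includes that of preparation. No genes were matched to regions, since the gene table at hand is of another build; genes of rRNA transcription were not analysed here.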

Additional observations from a re-analysis of the deposited data

How the results depend on the processing

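The log2 difference between groups in the Rn45s share of all counts (0.95) ranged from 0.79 to 1.14 without 1 library, and those relative to the chromosome 9 and chromosome 2 regions from 0.83 to 1.22 and from 0.84 to 1.22. Other summaries (the long row alone, medians, a single reference region, the last for chromosome 2 chosen after seeing the data) moved none of the 3 by more than the spread between libraries. The difference relative to reads outside the 50 highest regions (0.07) was 0.52 outside the 20 highest. That denominator by construction keeps more high-count regions, the 2 Rn45s rows among them. The difference was 0.05 outside the 100 and the 200 highest. Outside the 50 highest it ran from -0.09 to 0.25 without 1 library. The TMM-scaled value of the long row (-0.05) was 0.94 on region totals alone and from -0.22 to 0.12 without 1 library; it was 0.05 with upper-quartile factors and 0.12 without control replicate 1, so its sign changed with the setting. The short row had 0.91 on region totals and -0.40 to 0.25 without 1 library; without both control replicates 1 and 3 it had 0.41. The 0 regions called became 6 on region totals and 40 with DESeq2 (adjusted p NA for 166), and stayed 0 without any 1 library and without control replicates 1 and 3; the cause of the 40 was not tested. The difference in the highest window z ran from 275 to 498 and that in covered length from 25.0 to 175 bp without 1 library.

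With the replicate number as a block, the long row had -0.02 and the short row -0.09. The count of regions at unadjusted p below 0.05 went from 881 (7.79%) to 662 (5.86%). On the shares and z the paired difference equals the unpaired one (0.95 for all counts). The titles give both groups the numbers 1, 4, 6 and 9 without saying that a number marks a shared day. Deviations from the group mean correlated at 0.17, 0.04, -0.06 and 0.26 between libraries of the same number over all regions. Not every library correlated best with its own number. Whether a number marks a pairing was not tested.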

Other observations

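As a share of reads outside the 50 highest regions, libraries of the same replicate number were close in the summed Rn45s window. This was also so in its long row, but not in the short row. The pattern was noticed in the values and not tested. Relative to reads outside the 50 highest regions, conditioned over control in the summed window was 0.993 for replicate 1 (5.93 and 5.97 reads per 100), 1.05 for replicate 2 (3.07 and 2.92), 1.08 for replicate 3 (4.56 and 4.21) and 1.07 for replicate 4 (4.15 and 3.87). The mean of the 2 libraries differed up to 1.99-fold between numbers. The mean size of the difference within a number was 0.07 (log2) for the sum of the 2 rows. The median over 11304 single regions was 0.83, but most of these hold far fewer reads than the window. The pattern and its scale were picked after the values were seen, so no rarity is read from this. By row, the ratios of replicates 1 to 4 were 1.07, 1.06, 1.07 and 1.05 for the long row (mean size 0.08) and 0.706, 0.987, 1.19 and 1.26 for the short row (0.28). On the share of all counts the ratios for the summed window were 2.73, 0.994, 2.71 and 1.91. On the TMM scale libraries of the same number were less close. By replicate, the summed window had 6052, 2587, 4434 and 3696 CPM in controls and 5137, 3131, 3985 and 3628 CPM in conditioned libraries. Over all regions, deviations of libraries of the same number correlated at 0.17, 0.04, -0.06 and 0.26 for replicates 1 to 4. Libraries of unlike number reached values as high, 0.27 for control replicate 1 with conditioned replicate 3 and 0.26 for control replicate 2 with conditioned replicate 4. Their lowest was -0.34, for control replicate 1 with conditioned replicate 4.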
